A study of Mus musculus with 6 samples.

Results

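The regions described here are the peaks of rabbit IgG in DNA methyltransferase triple-knockout mouse embryonic stem cells (TKO) that shared no base with an IgG peak of wild-type J1 cells (WT). They were selected on the positions of the peaks in the 2 IgG lists, with an overlap of 1 bp counting as shared, which left 809 of the 1057 TKO IgG peaks (76.5%, exact 95% binomial interval 73.9 to 79.1). The other 248 TKO IgG peaks overlapped a WT IgG peak and are called shared peaks below. All 6 peak lists of the series together held 7165 peaks. Because the calls of the IgG libraries themselves made this selection, the tags, lengths, chromosomes and distances of these TKO-only peaks describe the selection and were not tested.

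The study profiled chromatin by immunoprecipitation and sequencing (ChIP-seq) with antibodies to ATRX and DAXX and with non-specific rabbit IgG, in 1 library per antibody and line. J1 is an established line of mouse embryonic stem cells, and the TKO cells carry a homozygous knockout of the DNA methyltransferases. Both lines were cultured with the MEK inhibitor PD0325901 (1 µM) and the GSK3 inhibitor CHIR99021 (3 µM), and chromatin was fixed in 4% paraformaldehyde for 10 min. Whether the TKO cells are 1 clone, and from which line they were made, is not stated in the labels. Neither DNA methylation nor gene expression can be read from peak positions, so the labelled lines could not be checked. Each group is 1 library without replicates, and the groups are described without tests. Intervals are exact 95% binomial intervals and cover counting error over peaks only. They treat peaks as independent, which the clustered and repeated peaks described below are not.

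DNA methyltransferases place methyl groups on cytosine and keep repeated DNA, among other sequence, methylated in most mouse cells. ATRX is a chromatin remodeller and DAXX a histone chaperone for H3.3, and the pair is known to act at repeated and heterochromatic DNA. Rabbit IgG binds no chosen chromatin protein, so its precipitate serves as a background measurement. Such background is known to pile up where many reads align to one stretch of the reference genome, as in repeated or duplicated sequence.

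Sequencing depth is unknown here, and a position missing from the WT list was not shown to be free of reads. The peaks of the WT IgG list held 19267 tags (sequence reads counted in a peak) and those of the TKO list 69180. The weakest listed peak had a score of 60.1 in WT and 60.02 in TKO IgG, the score being 10 times the negative log10 of the peak caller's p-value. The authors' median fold enrichment over the caller's background was 70.9 in the WT and 28.5 in the TKO list. Of the 402 WT IgG peaks, 252 overlapped a TKO IgG peak (62.7%, 57.8 to 67.4) and 150 did not (37.3%, 32.6 to 42.2). The ATRX list of WT cells and the DAXX list of TKO cells shared 750 peaks that were identical to the base, 52.1% of the former and 36.7% of the latter. The overlaps with these 2 lists, the shares within 10 kb and the median distances are therefore also given without these peaks.

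The TKO-only peaks were weaker than the shared ones. Together they held 46296 tags, 66.9% of the tags in TKO IgG peaks. A TKO-only peak held between 13 and 1526 tags, with a median of 39 (interval of the median over peaks 36 to 43), and a shared peak held between 14 and 1146, with a median of 69 (61 to 74). With both IgG lists cut to scores of at least 100 and the selection repeated, 305 TKO IgG peaks overlapped no remaining WT IgG peak. Their median was 65 tags. Only 220 TKO-only peaks reached that score, so the 305 include peaks that overlap a WT IgG peak with a score below 100. Fewer than 50 tags were counted in 507 of the TKO-only peaks (62.7%, 59.2 to 66.0) and in 79 of the shared ones (31.9%, 26.1 to 38.0). Lengths were closer to each other than tags. The median was 561 bp for TKO-only peaks (534 to 587, range 150 to 6691) and 612.5 bp for shared peaks (568 to 689). Tags per kb had a median of 73.7 in the TKO-only peaks (72.7 to 75.5) and 99.6 in the shared ones (89.0 to 108). The authors' fold enrichment had a median of 26.8 (26.3 to 28.4) and 31.1 (29.2 to 34.1), in the same order. The score reached 100 in 220 TKO-only peaks (27.2%, 24.2 to 30.4) and in 174 shared peaks (70.2%, 64.0 to 75.8). It reached 200 in 26 TKO-only peaks (3.21%, 2.11 to 4.67) and in 64 shared peaks (25.8%, 20.5 to 31.7). The same calls chose the peaks, so this order is a description of the selection.

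**Figure D1:**
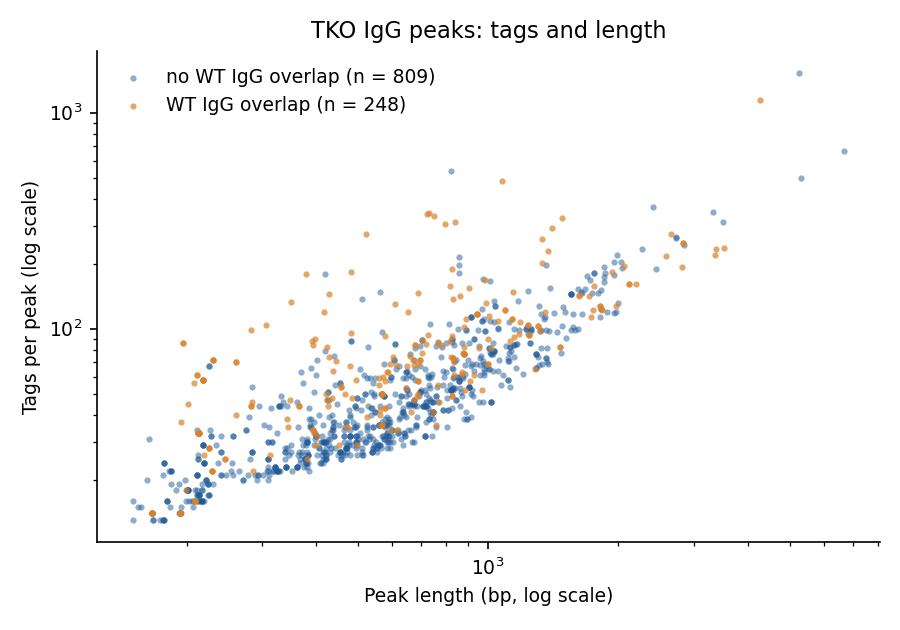
Tags per peak against peak length in bp, both on log scales, for the 809 TKO IgG peaks without a WT IgG overlap (blue) and the 248 with one (orange), 1 point per peak. Most blue points lie at the low end of tags (median 39 against 69), and the longest peak (6691 bp) and the one with the most tags (1526) are both blue.

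The TKO-only peak with the most tags lay on chromosome 8 from 56203824 to 56209072 in the mouse build mm9. It held 1526 tags over 5249 bp, or 291 per kb, yet its fold enrichment of 6.55 was the lowest of all TKO IgG peaks. It lay 1788 kb from the nearest WT IgG peak. The highest tag density belonged to a short peak on chromosome 16 from 57391208 to 57392027, with 535 tags over 820 bp (652 per kb) and a fold enrichment of 8.02. A peak on chromosome 15 from 33761327 to 33763740 held 365 tags, with a fold of 9.23. These 3 lay more than 1 Mb from any WT IgG peak and were single peaks of high tags and low fold.

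The other 7 of the 10 peaks with the most tags lay within 40 kb of a WT IgG peak, and 5 of them were on chromosome 4. The longest TKO-only peak, on chromosome 4 from 146735790 to 146742480, spanned 6691 bp and held 663 tags, with the highest score of the set (416.13). Chromosome 4 from 147009552 to 147014853 held 497 tags and from 146127083 to 146130591 held 313. A further pair of chromosome 4 peaks, from 146402369 to 146405094 and from 145857013 to 145859739, held 266 and 264 tags. Both were 10.7 kb from a WT IgG peak, 1.58 kb from a WT ATRX peak and 6.73 kb from a WT DAXX peak. Chromosome 5 from 15215974 to 15219302 held 346 tags, and chromosome 1 from 87379979 to 87382829 held 245. No gene annotation of this build was used here, so the genes at these places are not named.

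Chromosomes 4, 14 and 17 held 367 of the 809 TKO-only peaks (45.4%, 41.9 to 48.9), a share of 26.7% with each 50 kb cluster counted once. Chromosome 4 held 154 (19.0%, 16.4 to 21.9), chromosome 14 held 150 (18.5%, 15.9 to 21.4) and chromosome 17 held 63 (7.79%, 6.04 to 9.85). The same chromosomes held 99 of the 248 shared peaks (39.9%, 33.8 to 46.3), an interval that overlaps that of the TKO-only peaks. They held 34.6% of the WT IgG peaks (29.9 to 39.5), and between 10.6% and 17.4% of the peaks in the ATRX and DAXX lists. The IgG lists of both lines thus held larger shares on these chromosomes than the ATRX and DAXX lists did. The caller's control for the ATRX and DAXX lists is not stated. High IgG shares were not confined to these 3 chromosomes. Chromosome 6 held 12.4% of the WT IgG peaks, as did chromosome 14, against 7.46% on chromosome 17. It also held 15.3% of the shared peaks, against 12.1% on chromosome 14 and 8.87% on chromosome 17.

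Among the 3 chromosomes, only chromosome 14 held a larger share of the TKO-only than of the shared peaks by more than 5 percentage points (18.5% against 12.1%). Chromosome 4 held 19.0% of either set, and chromosome 17 held 7.79% against 8.87%. Read the other way, 83.3% of the TKO IgG peaks of chromosome 14 were TKO-only (77.1 to 88.5), as were 76.6% on chromosome 4 (70.1 to 82.3) and 74.1% on chromosome 17 (63.5 to 83.0), against 76.5% of the whole list. Chromosome 6 stood lowest of all, with 35 of its 73 TKO IgG peaks TKO-only (47.9%, 36.1 to 60), and chromosome 11 next, with 20 of 34 (58.8%, 40.7 to 75.4). Chromosome 13 had the highest number of TKO IgG peaks relative to WT IgG peaks, 70 against 18 (a ratio of 3.89), followed by chromosome 14 (3.6), chromosome 8 (3.47) and chromosome 4 (3.41). The lowest ratios were 1.33 on chromosome Y and 1.46 on chromosome 6.

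**Figure D2:**
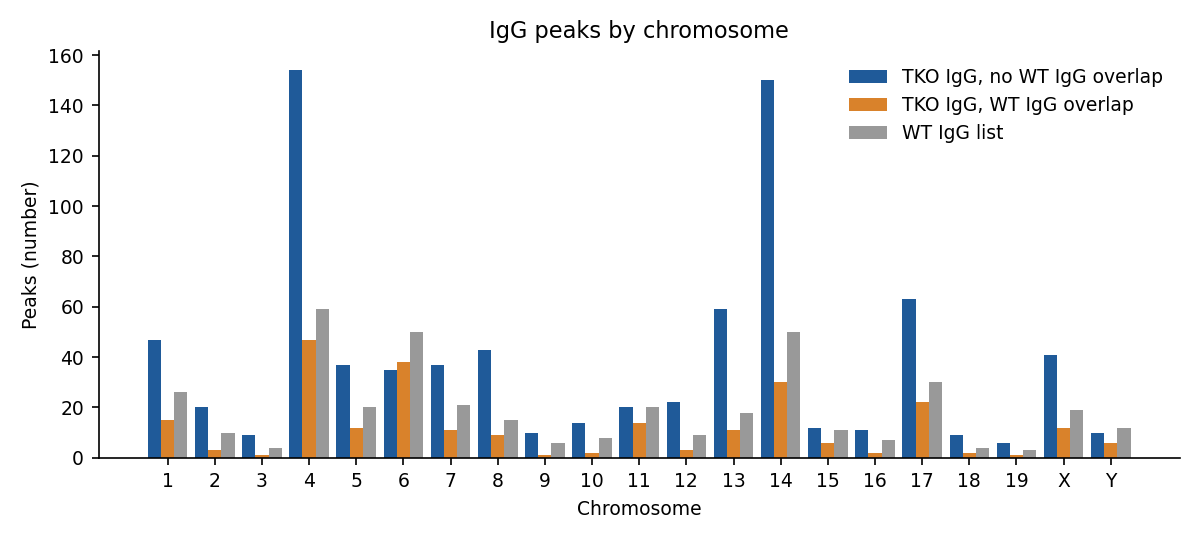
Number of IgG peaks on each chromosome, as bars, for TKO IgG peaks without a WT IgG overlap (blue), TKO IgG peaks with one (orange) and the whole WT IgG list (grey). Chromosomes 4 and 14 stand out in blue with 154 and 150 peaks, while on chromosome 6 the 38 orange exceed the 35 blue ones.

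Within these chromosomes the TKO-only peaks crowded into short stretches. In bins of 5 Mb, the fullest was chromosome 4 from 145 to 150 Mb, with 127 peaks, which was 82.5% of that chromosome's TKO-only peaks and 15.7% of all. All 127 lay between 145089512 and 147147634. Chromosome 14 from 5 to 10 Mb held 85 and from 0 to 5 Mb held 35, and chromosome 17 from 5 to 10 Mb held 53. Chromosome 13 from 65 to 70 Mb, with 43, was the only one of the 5 fullest bins outside the 3 chromosomes. These 5 of the 207 occupied bins held 343 TKO-only peaks (42.4%). The WT IgG list had peaks in each of them too, 48 and 26 in the first pair named, 14 in the other bin of chromosome 14, 21 on chromosome 17 and 8 on chromosome 13.

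Tag levels differed between these chromosomes. The median TKO-only peak held 60 tags over 788 bp on chromosome 4, 49 tags over 696 bp on chromosome 17 and 30 tags over 437 bp on chromosome 14. The TKO-only peaks of chromosome 4 held 11837 tags and those of chromosome 14 held 5900, though their numbers were nearly equal.

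Neighbouring TKO-only peaks were joined into clusters where the gap between them was at most 50 kb. This put 529 of the 809 into 94 clusters of 2 or more (65.4%, 62.0 to 68.7) and left 280 single. On chromosomes 4, 14 and 17 the clusters took 310 of 367 peaks (84.5%, 80.4 to 88.0), and on the other chromosomes 219 of 442 (49.5%, 44.8 to 54.3). Clusters of 10 or more peaks numbered 16, with spans from 46.7 to 211 kb. They held 244 peaks (30.2%, 27.0 to 33.5), of which 166 were on chromosomes 4 and 17. A WT IgG peak lay inside the span of 15 of these 16. The exception was a cluster of 15 on chromosome 13 from 66126487 to 66243171, with 688 tags and no WT IgG or shared peak in its span. Of all 94 clusters, 37 spanned a WT IgG peak (39.4%, 29.4 to 50). No clustered share is given here for the shared peaks, the whole TKO IgG list or the WT IgG list. Clustering is therefore not shown to be particular to the TKO-only peaks.

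The 5 largest clusters lay in 2 stretches, 3 on chromosome 4 and 2 on chromosome 17. The largest, on chromosome 4 from 146368771 to 146513403, held 25 TKO-only peaks with 32 to 266 tags (median 73) and 2078 tags in all. Chromosome 4 from 145823415 to 145965548 held 24, with 32 to 264 tags (median 74.5), and from 146044156 to 146255414 another 24, with 25 to 313 tags (median 60.5). Each of these 3 spans also held 8 WT IgG peaks. On chromosome 17 the clusters ran from 6753250 to 6907551 and from 6579604 to 6702350, with 20 TKO-only and 9 WT IgG peaks each. TKO-only peaks and WT IgG peaks thus lay interleaved along the same stretches.

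Many of the TKO-only peaks had exact counterparts elsewhere in the set. A profile was defined as the length, tags, score and fold enrichment of a peak, and 268 TKO-only peaks had the same 4 values as another TKO-only peak (33.1%, 29.9 to 36.5). They formed 82 sets of 2, 20 of 3 and 11 of 4, and in 98 of these 113 sets all peaks lay on 1 chromosome. The definition did not use the summit. Within 1 bp, it was at the same distance from the peak start in 64 sets and at the mirrored distance for some peaks in 27. In 21 sets it was so near the middle that the 2 places could not be told apart, and in 1 set it was elsewhere. A repeated profile was not particular to these peaks. It occurred in 32.7% of the shared peaks (26.9 to 38.9) and in 35.1% of the WT IgG peaks (30.4 to 40), compared within each set. It was more frequent on chromosomes 4, 14 and 17 (173 of 367, 47.1%, 41.9 to 52.4) than elsewhere (95 of 442, 21.5%, 17.8 to 25.6). Peaks with fewer than 50 tags repeated in 38.3% of cases (34.0 to 42.7) and peaks with 50 or more in 24.5% (19.8 to 29.8). The most tags in a repeated profile were 181.

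The clearest case was the pair of chromosome 4 clusters of 24 and 25 peaks. In each, 22 TKO-only peaks had a counterpart with the same 4 values and the same summit in the other cluster. All 22 pairs were between 545355 and 545360 bp apart, in the same order and orientation. The pair with the most tags lay from 145850350 to 145852113 and from 146395706 to 146397469, and each peak spanned 1764 bp with 181 tags, a score of 252.14 and a fold of 21.71. The highest-tag peaks of these clusters just missed the definition, with 264 tags over 2727 bp in one and 266 over 2726 bp in the other. The WT IgG list repeated here as well. Within 10 kb of the clusters it had 10 and 11 peaks, and 10 of them had a counterpart with the same 4 values, at the same distances of 545355 to 545360 bp. The third large chromosome 4 cluster, with 24 peaks between these, had 0 peaks with a repeated profile.

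On chromosome 17, 16 of the 20 peaks of each large cluster had a counterpart in the other. In 9 of these pairs the summit was in the same place within 1 bp, at distances of 205201 to 206174 bp, and in the other 7 it was mirrored within 1 bp. On chromosome 14, clusters of 9 peaks from 5437455 to 5549316 and from 6622699 to 6734588 shared 7 profiles, of which 6 had the same summit, 1185225 to 1185245 bp apart, and 1 had it in the middle of the peak. A cluster of 8 on chromosome 14 from 5673685 to 5785579 shared 7 profiles with the latter, of which 5 had a mirrored summit and 2 had it in the middle. Peaks with a repeated profile cannot be counted as independent observations. With each profile counted once, the 809 peaks came to 654 and their tags to 39807, and the share on chromosomes 4, 14 and 17 was 41.3% (37.5 to 45.2). Reads were not analysed here, and whether the same reads were counted at more than 1 place was not tested.

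The TKO-only peaks lay close to the WT IgG list on some chromosomes and far from it on others. The distance to the nearest WT IgG peak had a median of 68.4 kb, with quartiles at 5.3 kb and 2.79 Mb. Within 1 kb lay 69 peaks (8.53%, 6.70 to 10.7), within 10 kb 273 (33.7%, 30.5 to 37.1) and within 100 kb 448 (55.4%, 51.9 to 58.8). With both IgG lists cut to scores of at least 100 and the selection repeated, 13.1% of the resulting 305 peaks were within 10 kb. That cut also removed most WT IgG peaks, whose scores had an upper quartile of 103. The 13.1% and the 33.7% are therefore not distances to the same WT IgG peaks. On chromosomes 4, 14 and 17 the median was 10.9 kb and 178 of 367 peaks were within 10 kb (48.5%, 43.3 to 53.7). On the other chromosomes it was 884 kb, with 95 of 442 within 10 kb (21.5%, 17.8 to 25.6). Chromosome 4 had the nearer TKO-only peaks of the 3, with 67.5% within 10 kb against 49.2% on chromosome 17 and 28.7% on chromosome 14. It held 104 of the 178 peaks. Nearness was thus not common to the 3 chromosomes, nor confined to them. The share of chromosome 14 was below those of chromosomes 6 (45.7%) and 7 (32.4%), and above those of chromosomes 8 (25.6%) and 5 (18.9%). Further chromosomes lay on either side of it. Chromosomes 4, 14 and 17 also held 34.6% of the WT IgG peaks, and the part of that density in the distances was not tested.

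**Figure D3:**
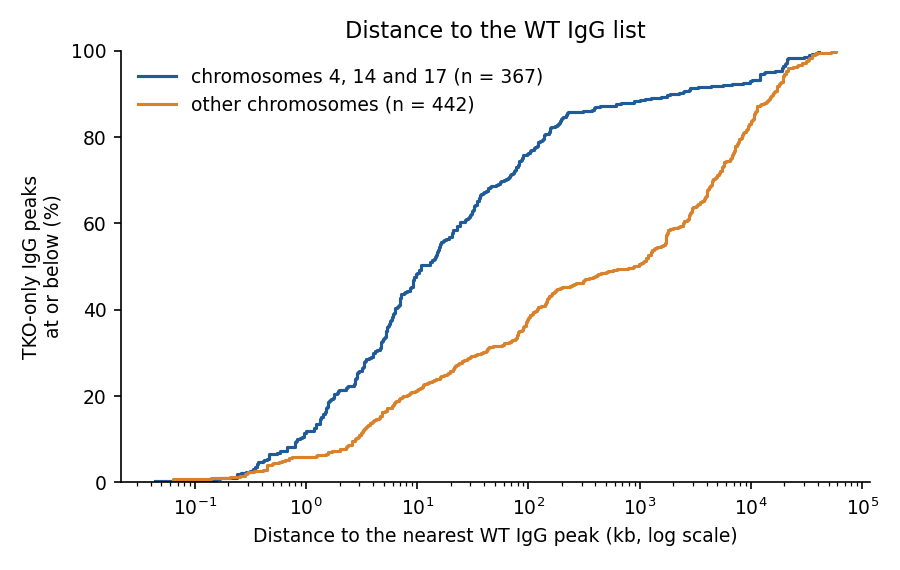
Cumulative share in % of TKO-only IgG peaks against the distance to the nearest WT IgG peak in kb (log scale), for 367 peaks on chromosomes 4, 14 and 17 (blue) and 442 on other chromosomes (orange). The blue curve lies above the orange one from 1 to 1000 kb, with 48.5% against 21.5% at 10 kb.

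The TKO-only peak nearest to a WT IgG peak was on chromosome 4 from 145352037 to 145352512, 44 bp away, with 29 tags. The next were on chromosome Y, from 425858 to 426217 and from 2098546 to 2098905, with 23 tags each and a distance of 64 bp. In all, 5 peaks lay within 100 bp and 43 within 500 bp. On the other side, the largest overlap of each shared peak with a WT IgG peak was at least 129 bp. An overlap of 129 bp was found in 5 shared peaks of 166 bp and 14 tags, all with the same profile. They lay on chromosome 6 between 114473424 and 114573894. Coverage by WT IgG was at least 50% of the peak in 209 of the 248 shared peaks (84.3%, 79.1 to 88.6), and the smallest coverage was 15.3%.

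At the far end, 261 TKO-only peaks (32.3%) lay more than 1 Mb from any WT IgG peak, on 20 chromosomes, with 43 of them on chromosomes 4, 14 and 17. They were smaller and more scattered than the others. Their median was 31 tags over 452 bp, against 45 tags over 635 bp in the 548 others. In clusters of 2 or more were 53 of them (20.3%), against 476 of the others (86.9%), and 19.2% had a repeated profile, against 39.8%. The farthest of all was on chromosome 8 from 131277240 to 131277619, a peak of 30 tags and 380 bp, 57.7 Mb from a WT IgG peak.

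The ATRX and DAXX lists took no part in the choice of the peaks. The caller's control for those lists is not stated, and whether IgG reads entered their calling was not tested. Only 5 TKO-only peaks overlapped a peak of any of the 4 lists (0.618%, 0.201 to 1.44), against 3 shared peaks (1.21%, 0.25 to 3.49) and 0.757% of the whole TKO IgG list. The high-tag peak on chromosome 8 at 56203824 overlapped a TKO ATRX peak of 836 bp (score 77.85) and a pair of TKO DAXX peaks of 2755 and 461 bp (scores 114.77 and 75.85). The chromosome 4 peak at 146127083 overlapped a TKO ATRX peak of 364 bp (79.14). On chromosome 14, the peak from 4213533 to 4214891 (198 tags) overlapped a WT ATRX peak of 585 bp (118.5), and the one from 93614037 to 93615239 (62 tags) a WT ATRX peak of 332 bp (76.82). The chromosome 4 peak from 145479124 to 145479579 (25 tags) overlapped a WT DAXX peak of 323 bp (56.3). Of the whole TKO IgG list, 0.0946% of peaks overlapped the DAXX list of WT cells, and 0.284% overlapped each of the other 3 lists.

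Within 10 kb of an ATRX or DAXX peak of any list lay 92 TKO-only peaks (11.4%, 9.27 to 13.8) and 38 shared peaks (15.3%, 11.1 to 20.4), against 12.3% of the whole TKO IgG list. For WT ATRX the number was 27 TKO-only peaks (3.34%, 2.21 to 4.82), against 12 shared peaks (4.84%, 2.52 to 8.30) and 3.69% of the list. For WT DAXX it was 31 (3.83%, 2.62 to 5.40), against 12 (4.84%, 2.52 to 8.30) and 4.07%. With both IgG lists cut to scores of at least 100 and the selection repeated, the shares were taken of the resulting 305 peaks. They were 5.25% near WT ATRX, 8.52% near WT DAXX, 4.59% near TKO ATRX and 2.62% near TKO DAXX. With that score in the antibody list instead, the shares of the 809 TKO-only peaks were 0.371%, 0.124%, 1.24% and 0.865% in the same order. For TKO ATRX the number of TKO-only peaks within 10 kb was 32 (3.96%, 2.72 to 5.54), against 11 (4.44%, 2.23 to 7.80) and 4.07%. For TKO DAXX it was 16 (1.98%, 1.13 to 3.19), against 11 (4.44%, 2.23 to 7.80) and 2.55%. The TKO-only peaks make up 76.5% of the TKO IgG list, so their shares lie near those of the list by construction. For each of the 4 lists the share of the TKO-only peaks was below that of the shared peaks, with overlapping intervals. The difference was not tested. Without the peaks identical in WT ATRX and TKO DAXX, the shares of TKO-only and shared peaks were 2.97% and 2.82% for WT ATRX and 1.73% and 2.42% for TKO DAXX. For any list they were then 11.1% (9.04 to 13.5) and 13.3% (9.34 to 18.2), and the number of TKO-only peaks overlapping any list was again 5.

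**Figure D4:**
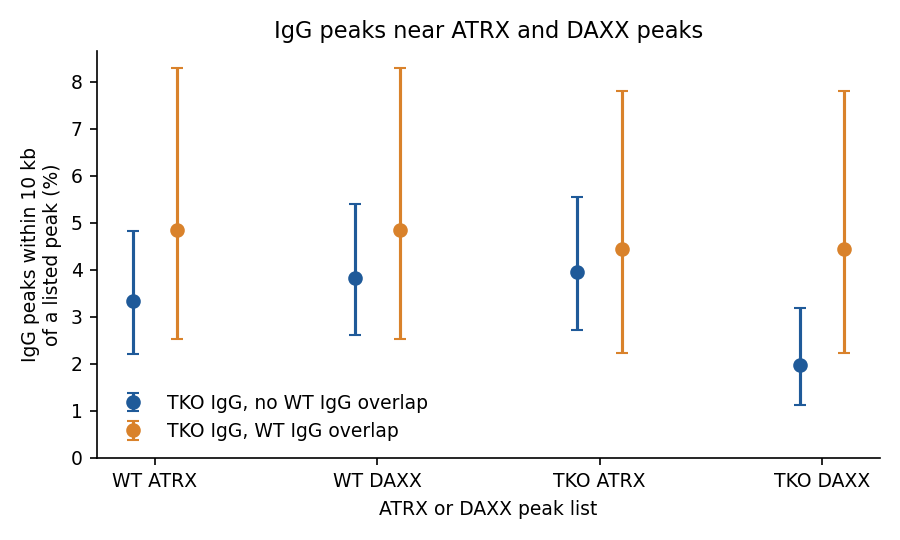
Share in % of TKO IgG peaks within 10 kb of a peak of each ATRX or DAXX list, for TKO-only IgG peaks (blue, n = 809) and shared ones (orange, n = 248), with exact 95% binomial intervals over peaks as bars. The blue shares run from 1.98% to 3.96%, the orange ones from 4.44% to 4.84%, and the bars overlap in each list.

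The peaks near ATRX and DAXX were themselves unevenly placed. Of the 92, 45 were on chromosome 4 from 145 to 150 Mb, a bin with 127 of all 809 TKO-only peaks (15.7%). In clusters of 2 or more were 72 of the 92, against 529 of all 809 (65.4%). The 92 peaks had 74 distinct profiles and all 809 had 654, a similar proportion, so repeated profiles were not particular to the 92. Chromosome 4 held 29 of the 31 TKO-only peaks near WT DAXX, 13 of the 27 near WT ATRX and 13 of the 32 near TKO ATRX, but 1 of the 16 near TKO DAXX. A further 10 of the 32 near TKO ATRX were on chromosome 13. The median distance from a TKO-only peak to the nearest listed peak was 223 kb for TKO ATRX, 262 kb to the ATRX list of WT cells, 365 kb for TKO DAXX and 689 kb for WT DAXX. For shared peaks the distances were 194, 285, 389 and 726 kb in the same order. Without the identical peaks, the medians for TKO-only and shared peaks were 342 and 377 kb for WT ATRX, and 450 and 452 kb for TKO DAXX. Longer lists give shorter distances, so the lists are not compared with each other.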

How the data were processed

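One deposited peak list per library was used (6 in all, 1 per group, by sample title). The submitters' processing notes name Bowtie2, Picard and mm9 without versions or roles. Peak names and columns are those of MACS, per the file headers and peak names. Neither the caller's version and settings nor its control are stated. The IgG tables deposited by the authors give a tag count per peak, length and summit in bp, a score of 10 times the negative log10 of the p-value, and a fold enrichment, which is a ratio to the caller's background. For ATRX and DAXX the deposited files hold a position and a score whose scale is not stated. BED starts were changed to count from 1. Overlaps, edge-to-edge distances and clusters were computed in Python 3.11.15 with numpy 2.4.6, pandas 2.3.3 and scipy 1.17.1. The code was tested on 20 simulated sets, and every planted value was recovered. Bedtools 2.31.1 gave the same 809 peaks. Median intervals come from binomial order statistics. No group comparison was tested. Regions named individually were the 10 TKO-only peaks with the most tags, the 5 largest clusters, the peaks at either edge of the definition, those overlapping ATRX or DAXX peaks and the farthest one; other regions, and all results on repeated profiles, were chosen after their values were seen. The peaks and summaries were chosen with earlier results of these data known. No mm9 sequence was used here.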

Additional observations from a re-analysis of the deposited data

How the results depend on the processing

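Of 62 recomputed values, 20 stayed within the 95% interval of the reported value (counts of peaks within a factor of 1.5). The others moved as follows, and the cause was not tested beyond what each setting does by construction. Counting each profile once and leaving out peaks identical in WT ATRX and TKO DAXX were chosen after seeing the data. With both IgG lists cut to scores of at least 100, 305 TKO IgG peaks overlapped no remaining WT IgG peak. Some of these overlap a WT IgG peak with a score below 100. The medians of the 305 were 65 tags, 733 bp, 90.7 tags per kb and a fold of 33.0. Of them, 54.1% were on chromosomes 4, 14 and 17 and 69.2% in clusters. Within 10 kb of a remaining WT IgG peak were 13.1%, with 5.25% near WT ATRX and 8.52% near WT DAXX. With that score required in the TKO list only, 220 TKO-only peaks were left, 55.8% of the TKO IgG peaks with that score. TKO-only peaks made up 80.2% of the list if a shared peak had to be covered over 50%, and 70% with WT peaks widened by 1 kb. With each 50 kb cluster counted once, 26.7% were on chromosomes 4, 14 and 17. Clusters took 50.4% at a gap of 10 kb and 69.2% at 100 kb. Within 1 and 100 kb of a WT IgG peak lay 8.53% and 55.4%. For WT ATRX, the share was 0.247% by overlap, 0.865% within 1 kb, 24.2% within 100 kb and 0.371% for antibody scores of at least 100. For WT DAXX these were 0.124%, 0.494%, 23.7% and 0.124%, for TKO ATRX 0.247%, 0.989%, 32.8% and 1.24%, and for TKO DAXX 0.124%, 0.371%, 17.7% and 0.865%. With each profile counted once, the median fold was 26.2, and 41.3% were on chromosomes 4, 14 and 17, 60.9% in clusters and 29.8% within 10 kb of a WT IgG peak. Repeated profiles made up 39.9% by length and tags only, 27.4% with the summit and 28.8% with the chromosome added. No paired analysis was possible because each group holds 1 library, and no library could be left out for the same reason. Unknown depth limits every absence from a list.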

Other observations

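The sex chromosomes held 51 TKO-only IgG peaks. Chromosome X had 41, of which 22 lay between 120406023 and 122343659, and 46.3% had a repeated profile. Chromosome Y had 10 against 6 shared peaks, and 8 of the 10 had a repeated profile. The median distance to a WT IgG peak was 441 bp on chromosome Y, the shortest of any chromosome.

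On 6 autosomes (chromosomes 3, 9, 15, 16, 18 and 19) no TKO-only peak had another within 50 kb. These chromosomes held 57 TKO-only peaks in all.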
